A study of Xenopus tropicalis with 24 samples.

Results

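Paraxial mesoderm forms the somites and trunk muscle of the embryo, and the posterior mesoderm behind it supplies new cells as the body axis extends. Nodal ligands act through type I receptors that phosphorylate Smad2/3, which then bind DNA with partner factors and switch on mesodermal and endodermal genes, while FGF and Wnt signals and the T-box factors maintain the posterior and paraxial programme. The genes described here are 5 transcription factor genes of that programme: msgn1, a basic helix-loop-helix (bHLH) factor of presomitic mesoderm; myf5, a bHLH factor that commits cells to skeletal muscle; cdx4 and cdx1, caudal-type homeobox factors that pattern the posterior axis and act on Hox genes; and snai1, a zinc-finger repressor of epithelial genes that is active in gastrulating mesoderm. They and the gene lists used below were chosen by name, with earlier results of these data known. All 5 genes have a label of their own among the 5944 gene labels of the RNA table. They also appear among the 8164 genes named in the peak lists.

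The embryos were wild-type Xenopus tropicalis, a frog, taken whole at Nieuwkoop and Faber stages 8, 9 and 10.5, which run from the blastula to the start of gastrulation. Nodal-inhibited embryos were grown from the 4-cell stage with SB431542, an inhibitor of the type I receptors for Nodal and activin, and taken at stage 9. Transcripts were read by 3' RNA-seq from 400 ng of mRNA for stage 8, Nodal-inhibited stage 9, untreated stage 9 and stage 10.5 embryos. Chromatin immunoprecipitation with sequencing (ChIP-seq) on pools of 250 embryos gave peak lists for Smad2/3, H3K4me1 (enhancers and promoter flanks), H3K27ac (active elements), H3K4me3 (promoters) and H3K27me3 (Polycomb-repressed chromatin) at all 3 stages, and for H3K27ac and H3K4me1 in Nodal-inhibited stage 9 embryos. Each group as used here is 1 library, so no difference below has a replicate check, no test between groups was possible, and every interval (95%, exact) covers counting error only. In such whole-embryo samples fewer cells of a type and less RNA per cell cannot be told apart.

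Named regions of the 4 RNA libraries held 4656275 to 8030203 tags, and levels are given as counts scaled to these tags (CPM), so that 3 tags, the one-sided 95% limit that a count of 0 allows, came to between 0.374 and 0.644 CPM. The whole-embryo label held up at stage 10.5, where 7 of 7 ectoderm, 8 of 8 mesoderm and 4 of 6 endoderm markers in the table reached 10 CPM. At stage 8, in inhibited stage 9 and in untreated stage 9 embryos, 1 of 8 mesoderm markers and 0 of 6 endoderm markers reached that level, against 5 of 7 ectoderm markers. Aligner and adapters of the histone libraries go with the treatment (Bowtie without multiplexing adapters under inhibition, BWA with them in untreated embryos), so their part and that of the inhibitor cannot be told apart in any histone comparison between these arms.

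Transcripts of msgn1, cdx4 and cdx1 were at or near 0 until stage 9 and present at stage 10.5, whereas myf5 and snai1 were already counted at stage 8. The msgn1 region, 0.861 kb downstream of the annotated transcription start site (TSS), held 0 tags at stage 8, 0 tags in inhibited stage 9, 0 tags in untreated stage 9 and 216 tags (26.9 CPM, 23.4 to 30.7) at stage 10.5. The cdx4 region held 0, 1, 0 and 260 tags in the same 4 libraries, and its stage 10.5 level was 32.4 CPM (28.6 to 36.6). The cdx1 region held 0, 0, 0 and 26 tags, or 3.24 CPM (2.11 to 4.74) at stage 10.5. For these 3 genes the stage 10.5 library alone stood clear of the other 3, whose two-sided intervals reach up to 0.792 CPM for 0 tags and 1.197 CPM for the 1 tag of cdx4.

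The stage 10.5 levels of msgn1, cdx4 and cdx1 were at least 59.7-fold, at least 71.9-fold and at least 7.19-fold above untreated stage 9. For these bounds 3 tags, the one-sided limit, were put in place of 0 in the stage 9 library. The stage 10.5 count was taken as it stands, without its counting error, here and in such bounds below. For snai1 the stage 10.5 library held 1074 tags (133.7 CPM) and the untreated stage 9 library 57 tags (8.56 CPM), a 15.6-fold higher level (12.0 to 20.8). For myf5 they held 298 tags (37.1 CPM) and 31 tags (4.66 CPM), a 7.97-fold higher level (5.50 to 11.9). A gene was called when log2 of CPM + 1 differed by at least 2-fold and the higher library held at least 10 CPM. By that rule 4 of the 5 genes were higher at stage 10.5 than at stage 9, against 29.0% of the 5045 labels that could be called, and 0 were lower, against 17.2%. Over all labels 1465 were higher and 869 lower, or 1085 and 1168 with median-of-ratios size factors. The cdx1 level was under 10 CPM in both libraries. All 4 genes reached 10 CPM through the stage 10.5 library alone, so the call rule could find them only as higher or unchanged. Their log2 ratios of 4.80 (msgn1), 2.75 (myf5), 5.06 (cdx4) and 3.82 (snai1) stand beside a median of 0.29 over all labels tested, and those of msgn1 and cdx4 depend on the pseudocount of 1 CPM because stage 9 held 0 tags.

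**Figure D1:**
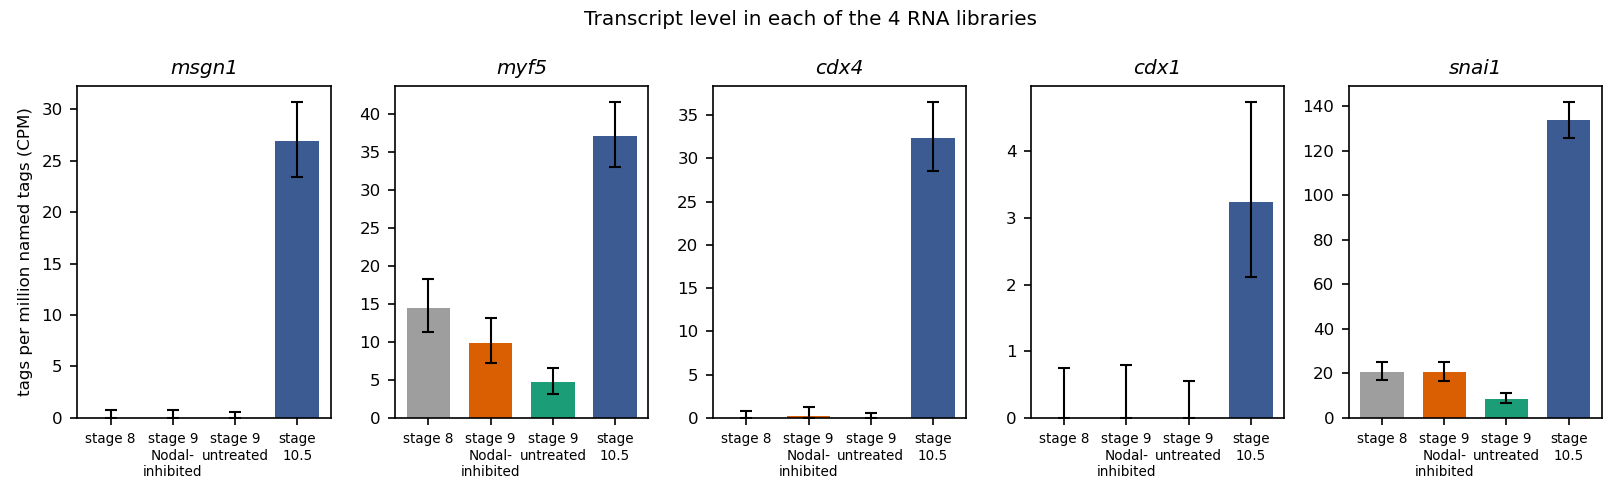
Transcript level (CPM) of each gene in the 4 RNA libraries, each panel on its own linear axis from 0; bars are single libraries and error bars the exact Poisson 95% interval of the count. Every gene is highest at stage 10.5, from 3.24 CPM for cdx1 to 133.7 CPM for snai1, and myf5 and snai1 are lower in untreated stage 9 embryos than in stage 8 or Nodal-inhibited stage 9 embryos.

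The levels of myf5 and snai1 were lower at stage 9 than at stage 8. The snai1 label held 57 tags (8.56 CPM, 6.48 to 11.1) in untreated stage 9 embryos and 103 tags (20.7 CPM, 16.9 to 25.1) at stage 8, a 2.42-fold lower level at stage 9 (1.73 to 3.41). The myf5 label held 31 tags (4.66 CPM, 3.16 to 6.61) in untreated stage 9 embryos and 72 tags (14.5 CPM, 11.3 to 18.2) at stage 8, a 3.11-fold lower level at stage 9 (2.02 to 4.90). The counting intervals of the stages do not overlap for either gene. These 2 were the members that could be called and both were lower, against 28.8% of all labels. They reached 10 CPM through stage 8 alone, so neither could have been called higher, as 7.29% of all labels were. Over all labels 361 were higher and 1428 lower, or 877 and 698 with median-of-ratios size factors. The median log2 ratio of all labels was itself -0.45 in this comparison, beside -1.18 for snai1 and -1.45 for myf5. With median-of-ratios size factors, which put the median of all labels at 0.10, neither gene reached 2-fold (-0.69 and -0.98), so the calls depend on the scaling while the direction does not. Stage 10.5 levels were above those of stage 8 too, 6.46-fold for snai1 (5.27 to 7.98) and 2.56-fold for myf5 (1.98 to 3.36). In that comparison 4 of the 5 genes were called higher, against 14.7% of all labels. Of these, msgn1 and cdx4 reached 10 CPM through stage 10.5 alone, so neither could have been called lower. The comparison with stage 8 was not recomputed under other scalings.

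Only snai1 and myf5 could have been lower in Nodal-inhibited than in untreated stage 9 embryos, and neither was. The other 3 genes held 0 tags in untreated embryos. In inhibited embryos snai1 held 96 tags (20.6 CPM, 16.7 to 25.2), against 57 tags (8.56 CPM, 6.48 to 11.1) in untreated embryos, a 2.41-fold higher level (1.72 to 3.40). In inhibited embryos myf5 held 46 tags (9.88 CPM, 7.23 to 13.2), against 31 tags (4.66 CPM, 3.16 to 6.61) in untreated embryos, 2.12-fold higher (1.32 to 3.46), and its level was just under the 10 CPM needed for a call. Only snai1 could be called, and it was higher, against 20.5% of the 4819 labels that could be called. It reached 10 CPM through the inhibited library alone, so it could not have been called lower, as 16.7% of all labels were. Over all labels 989 were higher and 805 lower, or 757 and 1000 with median-of-ratios size factors. The log2 ratio of snai1 lay between 0.92 and 1.28 over the alternatives and was under 2-fold with a pseudocount of 5 CPM. The log2 ratios of 1.18 for snai1 and 0.94 for myf5 stand beside a median of 0.21 over all labels. This comparison shares the untreated stage 9 library with the stage comparison before it, and the inhibited levels of 20.6 CPM for snai1 and 9.88 CPM for myf5 stand beside stage 8 levels of 20.7 and 14.5 CPM. Summed markers of the germ layers moved as well. Mesoderm markers summed to 100.3 CPM in inhibited and 39.8 CPM in untreated embryos, with 1 of 8 at 10 CPM in each arm. The mesoderm sum therefore does not tell whether these markers rose in general. Most of both sums lay in markers not given singly here. At 2.362 CPM or less in each arm, fgf8 held 11 tags in inhibited and 1 in untreated embryos, wnt8a 7 and 1, eomes 3 and 0, and t 0 and 1. In the same order ectoderm markers summed to 6245 and 8431 CPM, endoderm markers to 13.3 and 7.06 CPM and maternal markers to 834.6 and 1284 CPM. The part of these shifts in the 2 ratios was not tested. For msgn1, cdx4 and cdx1 both arms held 0 or 1 tag, so no effect of the inhibitor on them was detectable at this depth.

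The regions counted for snai1 lay in both orientations, which the assignment of regions to genes ignored. Regions whose start is written after their end were read as minus-strand, and over 4585 genes 86.0% to 91.8% of tags then lay on the strand that the peak annotation implies for the gene. Of the 6 snai1 regions on scaffold 48, 2 were sense and 4 antisense, and 63.6% of the stage 10.5 tags were sense. The largest, 1055810 to 1056319 and 3.08 kb downstream of the TSS, held 71, 66, 37 and 635 tags at stage 8, inhibited stage 9, untreated stage 9 and stage 10.5. An antisense region at 1053244 to 1053427, 0.355 kb downstream, held 0, 1, 0 and 196 tags in that order, so the antisense counts also were highest at stage 10.5. Sense tags alone gave 15.3 CPM in inhibited and 5.71 CPM in untreated stage 9 embryos, and 85.1 CPM at stage 10.5. The myf5 tags came from a sense region with 65, 42, 31 and 274 tags and an antisense region with 7, 4, 0 and 24, while msgn1, cdx4 and cdx1 each had 1 sense region.

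Among the 4911 labels of 1 gene with at least 10 CPM in some library, those with the profile closest to msgn1 over the 4 libraries (Euclidean distance of centred log2 CPM + 1) were mid1ip1, ldlrad3, LOC100145165, mespb and pcdh8.2, all with 0 tags before stage 10.5 and 184 to 258 tags there. Mespb is a bHLH factor of the forming somite and pcdh8.2 a protocadherin. The closest to cdx4 were pcdh8.2, tagln2, msgn1, mid1ip1 and crabp2. Closest to myf5 were mdm2, the ubiquitin ligase that acts on p53, hnrnpu, mreg, LOC100135223 and hnrnpul2, which all had a lower untreated stage 9 level than stage 8 level. Closest to snai1 were mett11d1, zc3h10, herpud1, fzd2 (a Wnt receptor) and zmcm3. For mett11d1 the table held 112, 105, 73 and 1312 tags at stage 8, inhibited stage 9, untreated stage 9 and stage 10.5, beside 103, 96, 57 and 1074 for snai1. Profiles of 4 libraries hold few degrees of freedom, and the likeness is given as a description.

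Other genes listed for the paraxial and posterior programme were counted in the same libraries. The list is wide. It also holds vegt, which is among the maternal markers, and mixer, which is among the endoderm markers. Of 54 genes listed, 21 are in the table, and 16 could be called between stage 10.5 and stage 9. Of these, 14 were higher and 1 lower, against 29.0% and 17.2% of all labels, with a median log2 ratio of 4.78 (4.98 with genes at 0 put at their lower bound) beside 0.29 over all labels. Of the 16, 11 reached 10 CPM through stage 10.5 alone and could be called only higher or not at all. T (brachyury), the T-box factor of nascent mesoderm, held 1869 tags at stage 10.5 and 1 tag at stage 9, a ratio of 1550 with a counting interval of 277.9 to 61254. Cdx2, the third caudal-type factor, held 1446 and 2 tags in the same libraries, a ratio of 599.6 (165.7 to 4956). The Wnt ligand wnt8a held 651 tags at stage 10.5 and 1 tag at stage 9, fgf8 319 and 1, and the Notch ligand dll1 237 and 1.

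The remaining calls covered both early and newly counted genes. Eomes held 605 tags at stage 10.5 and 0 at stage 9, at least 167-fold higher, and mespb was at least 50.9-fold and pcdh8.2 at least 71.3-fold higher. The Hox gene hoxd1 held 745 and 3 tags in the same libraries, a ratio of 205.9 (70.2 to 1001). Also higher at stage 10.5 were mix1, wnt11, aldh1a2, which makes retinoic acid, vegt and wnt5b, with log2 ratios from 1.24 for wnt5b to 4.82 for mix1. The Hes repressor hes7.1 was the 1 gene that was lower, with 1177 tags at stage 10.5 and 6268 at stage 9, 6.42-fold lower (6.03 to 6.84). Between inhibited and untreated stage 9 embryos 6 of the 21 could be called, and 2 were higher and 0 lower, against 20.5% and 16.7% of all labels. These were wnt11, with 121 tags in inhibited and 38 in untreated embryos, 4.55-fold higher (3.14 to 6.74), and aldh1a2, with 656 and 331 tags, 2.83-fold higher (2.48 to 3.25). Wnt11 reached 10 CPM through the inhibited library alone, so it could not have been called lower. The T-box gene vegt was on the other side without reaching a call, with 254 tags in inhibited and 664 in untreated embryos, 1.83-fold lower (1.58 to 2.12), and passed 2-fold with median-of-ratios size factors (log2 ratio -1.05). In untreated stage 9 embryos against stage 8, wnt11 and aldh1a2 were the 2 lower genes of 6, against 28.8% of all labels, with log2 ratios of -1.01 and -1.03 beside a median of -0.45. With median-of-ratios size factors neither reached 2-fold (-0.53 and -0.51). Here wnt11 reached 10 CPM through stage 8 alone, so it could not have been called higher.

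Counted by annotation, Smad2/3 peaks lay within 50 kb of 2 of the 5 genes, and only at stage 10.5. No peak annotated to any of them lay within 50 kb of the TSS at stage 8 or stage 9, where 1.62% and 3.52% of all genes named in the peak lists had one. At stage 10.5 cdx1 had 2 peaks and snai1 had 1, against 5.32% of all genes. The file headers describe the calls of stages 9 and 10.5 as stricter, with reads pooled at stage 9, and use neither word for stage 8, so a threshold that differs by stage cannot be told apart from binding.

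The Smad2/3 peak of snai1 lay on scaffold 48 at 1048136 to 1048574 (xenTro2 assembly), 4.62 kb upstream of the TSS, in sequence annotated as intergenic, with a score of 82.5 at percentile 98.4 of its list and a GC content of 44.6%. The promoter peak of cdx1 lay on scaffold 559 at 424755 to 424994, 0.239 kb upstream of the TSS, with a score of 10.7 at percentile 6.88 and a GC content of 39.6%. The other cdx1 peak, at 428201 to 428492 in intron 1 and 3.23 kb downstream, scored 20.9 at percentile 59.5 and had a GC content of 46.2%. So the snai1 peak ranked near the top of the list and the cdx1 promoter peak near the bottom. Peaks over a TSS or within 1 kb of it were called for 0.623% of all genes with a known TSS position at stage 10.5, and for 1 of these 5 genes, cdx1.

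At all 3 of these Smad2/3 sites H3K27ac was called in untreated stage 9 embryos and in none of them under Nodal inhibition. Both cdx1 sites lay under the same untreated peak (424368 to 429479), so the 3 sites are not independent. Smad2/3 sites 85.5 kb downstream of snai1 and 17.7 kb upstream of myf5, outside this count, had H3K27ac in both stage 9 arms. Over the whole stage 10.5 Smad2/3 list, 684 of 1024 sites lay under H3K27ac in untreated stage 9 embryos, and 161 of these (23.5%) had none under inhibition. The snai1 site lay under H3K27ac already at stage 8, as did 48.5% of the whole list, and the cdx1 sites first in untreated stage 9 embryos. H3K4me1 covered none of the 3 sites at stage 8, in inhibited stage 9 or in untreated stage 9 embryos and all 3 at stage 10.5. Over the whole list it covered 7.32% of sites at stage 8, 58.3% in inhibited stage 9 embryos, 73.9% in untreated stage 9 embryos and 95.7% at stage 10.5. In stage 9 embryos the snai1 site lay in a gap between H3K4me1 peaks. The gap ran from 1048021 to 1049313 in untreated embryos and from 1047221 to 1049317 in inhibited embryos. At stage 10.5 an H3K4me3 peak overlapped the cdx1 pair and none overlapped the snai1 site, beside 29.6% of sites over the whole list. That peak began at 424915, inside the cdx1 promoter site, and so covered only part of it. No Smad2/3 peak was called at any of the 3 sites at stage 9, when untreated embryos already had H3K27ac there.

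Beyond 50 kb, 4 more stage 10.5 Smad2/3 peaks were annotated to snai1, between 85.5 and 105 kb downstream and all intergenic. The nearest, at 1138305 to 1138672, lay under H3K27ac at every stage and in both stage 9 arms, and under H3K4me1 in both stage 9 arms and at stage 10.5. The other 3 lay under H3K27ac and H3K4me1 at stage 10.5 and under neither mark in the other libraries. Near myf5, a Smad2/3 peak at 1881711 to 1882230 on scaffold 5, with a score of 37.1, was annotated to its neighbour myf6, another myogenic bHLH gene, and lay 17.7 kb upstream of the myf5 TSS. H3K27ac was called over it at stage 8 (1879849 to 1883990), in inhibited (1881276 to 1883461) and untreated (1879559 to 1884805) stage 9 embryos and at stage 10.5. Counted by position and not by annotation, 3 of the 5 genes had a stage 10.5 Smad2/3 peak within 50 kb.

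**Figure D2:**
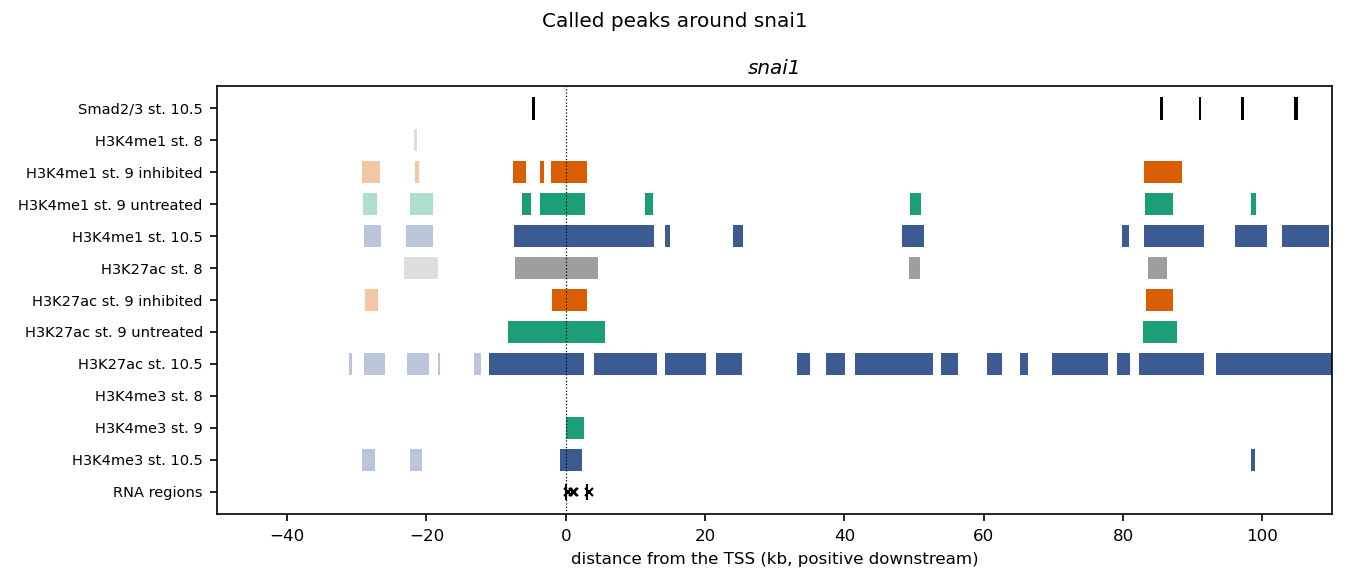
Called peaks around snai1 by distance from its TSS (kb, positive downstream), 1 line per list, with stage 8 grey, Nodal-inhibited orange, untreated stage 9 green, stage 10.5 blue and Smad2/3 black; pale bars are peaks annotated to another gene, and RNA regions are ticks (sense) or crosses (antisense). The H3K27ac peak over the TSS is 4.95 kb wide under inhibition and 13.8 kb wide in untreated stage 9 embryos, and the inhibited peak does not reach the Smad2/3 site 4.62 kb upstream.

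At snai1 H3K27ac was in place early, while no H3K4me1 or H3K4me3 peak was annotated to the gene at stage 8. An H3K27ac peak of 11.9 kb (1045742 to 1057609) covered the TSS at stage 8, rank 112 by width among 8078 peaks of that list. In inhibited stage 9 embryos the peak over the TSS ran from 1051047 to 1055992 (4.95 kb, rank 1598 of 16105), and in untreated stage 9 embryos from 1044750 to 1058555 (13.8 kb, rank 152 of 11314). The inhibited peak covered 35.8% of the length of the untreated one. The median share covered was 20.3% over all untreated H3K27ac peaks and 79.9% over those called again under inhibition (quartiles 52.5% and 100%), and 54.3% of all untreated peaks had a share at or below that of snai1. An H3K4me1 peak over the TSS was called in both arms, with 5.09 kb under inhibition and 6.49 kb in untreated embryos, and 82.4% of the untreated length was covered by this peak and a second inhibited one at 1049317 to 1049794. The lone stage 9 H3K4me3 peak at a TSS of these 5 genes was that of snai1 (1052956 to 1055659, 2.70 kb). Of all genes with a known TSS position, 45.3% had such a peak over the TSS or within 1 kb of it. At stage 10.5 H3K4me1 formed a domain of 20.0 kb (1045596 to 1065601, rank 175 of 35700), and 7 H3K27ac peaks summed to 48.3 kb within 50 kb of the TSS.

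The cdx1 locus carried no histone peak at stage 8. At stage 9 the promoter and first intron were under an H3K27ac peak at 424368 to 429479 in untreated embryos (5.11 kb, score 13), and no inhibited peak overlapped it. Further into the intron, a peak at 433734 to 434592 under inhibition covered 18.8% of the untreated peak at 430447 to 435027. An upstream element was called in both arms, as peaks centred 16.4 and 13.1 kb upstream (408334 to 409147 and 410526 to 413595) under inhibition and as 407685 to 413731 in untreated embryos (64.2% covered). That upstream element also held H3K4me1 in both arms, at 408424 to 412468 under inhibition and at 410175 to 413912 (score percentile 98.1) and 408240 to 409029 in untreated embryos. All of these were called while the cdx1 RNA region held 0 tags in both arms. At stage 10.5 a single H3K27ac domain of 34.6 kb (403414 to 438029), rank 133 by width of 23275, spanned all of these, and H3K4me3 was called over the TSS (424915 to 429525) and at the upstream element (411090 to 413447).

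**Figure D3:**
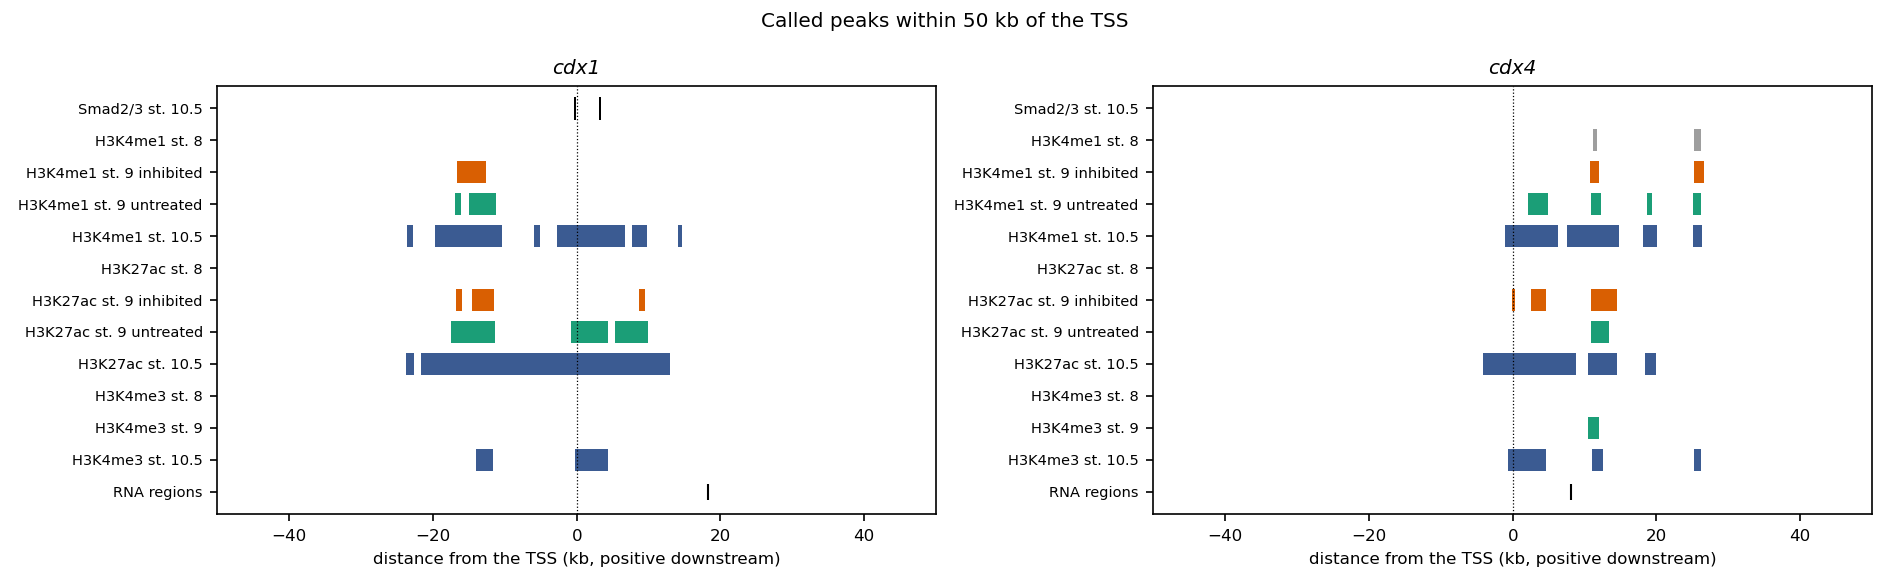
Called peaks within 50 kb of the TSS of cdx1 (left) and cdx4 (right) by distance from the TSS (kb, positive downstream), with colours and symbols as in the map of snai1. At cdx1 the H3K27ac peak over the TSS is missing from the Nodal-inhibited list and present in the untreated stage 9 list. At cdx4 the inhibited list has a narrow peak (0.384 kb) at the TSS and the untreated stage 9 list has none.

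The cdx4 locus was marked first at a distance from its TSS. H3K4me1 peaks lay 11.5 kb downstream (3983556 to 3984066 on scaffold 10) and 25.7 kb downstream (3969121 to 3970047) at stage 8, both beyond the RNA region of the gene, which lies 8.10 kb downstream. Peaks of H3K4me1 overlapped these positions again in inhibited stage 9, in untreated stage 9 and at stage 10.5. The nearer element held H3K27ac in inhibited (3980789 to 3984469) and in untreated (3981893 to 3984344) stage 9 embryos, and 100% of the untreated peak was covered. It also held H3K4me3 at stage 9 (3983366 to 3984839). Closer to the gene the arms differed in the other direction from cdx1. Inhibited embryos had H3K27ac peaks in intron 1 (3990731 to 3992801, score percentile 68.5) and over the TSS (3994989 to 3995372, score percentile 44.1) where untreated embryos had none. The TSS peak was only 0.384 kb wide, rank 15769 by width of the 16105 peaks in its list. H3K4me1 in intron 1 (3990368 to 3993153, score percentile 11.1) was found in untreated embryos alone. With 1 and 0 tags of cdx4 in inhibited and untreated embryos, no transcript difference went with these calls at this depth. At stage 10.5 H3K27ac spread over 13.0 kb (3986438 to 3999484), and H3K4me3 over 5.39 kb (3990636 to 3996021) at the TSS.

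The msgn1 locus carried no peak annotated to it before stage 10.5. At that stage H3K4me1 (400496 to 401660 on scaffold 100), H3K27ac (400953 to 401895) and H3K4me3 (400976 to 403060) lay over the TSS or the single exon. Elements about 11.1 kb upstream and 6.42 kb downstream carried both H3K4me1 (388967 to 390014 and 406157 to 408340) and H3K27ac (387764 to 392105 and 406057 to 408791). The marks and the first counted transcripts of msgn1 were thus called in the same stage.

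At myf5, whose transcripts were counted from stage 8, no histone peak was annotated to the gene at stage 8. In untreated stage 9 embryos an H3K4me1 peak lay over the TSS (1897647 to 1900903, 3.26 kb, score percentile 30.4), and no inhibited peak overlapped it, although the myf5 count was higher in inhibited embryos. At stage 10.5 the TSS lay under H3K4me1 (1893335 to 1900970), H3K4me3 (1899529 to 1902077) and an H3K27ac peak annotated to myf6 that ran from 1874084 to 1901101, with a further H3K27ac peak at 1902783 to 1911141. The annotation places the H3K4me1 and downstream H3K27ac peaks in an intron of another transcript.

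**Figure D4:**
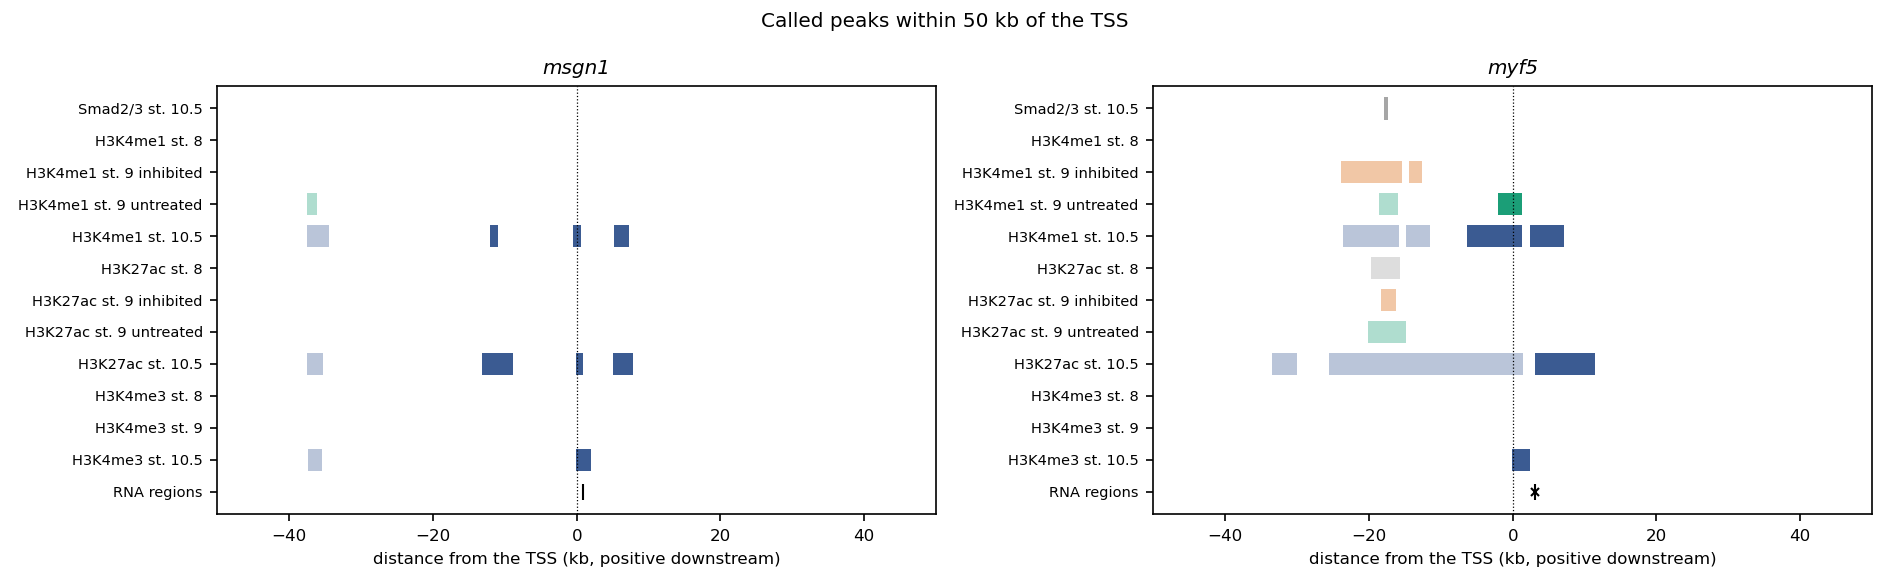
Called peaks within 50 kb of the TSS of msgn1 (left) and myf5 (right) by distance from the TSS (kb, positive downstream), with colours and symbols as in the map of snai1. At msgn1 every peak annotated to the gene is of stage 10.5, and at myf5 the upstream peaks annotated to myf6 (pale) are called at earlier stages and in both stage 9 arms.

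Counted over the 5 genes, the marks reached all of them by stage 10.5. Genes with an H3K4me1 peak within 50 kb numbered 1 at stage 8 (cdx4), 4 in untreated stage 9 embryos (all but msgn1) and 5 at stage 10.5, against 44.3%, 86.9% and 91.8% of all genes. Those with H3K27ac numbered 1 (snai1), 3 (cdx4, cdx1 and snai1) and 5, against 42.1%, 53.9% and 78.4% of all genes. Those with H3K4me3 numbered 0, 2 (cdx4 and snai1) and 5, against 13.8%, 52.2% and 81.4%. No H3K27me3 peak was annotated to any of them within 50 kb at any stage, where 0.159%, 0.147% and 0.563% of all genes had one. At the TSS, or within 1 kb of it, all 5 genes carried H3K4me1, H3K27ac and H3K4me3 at stage 10.5, against 76.9%, 62.1% and 72.6% of all genes. The shares of all genes at stage 10.5 are high, so 5 of 5 there does not set these genes apart.

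Under Nodal inhibition 3 genes (cdx4, cdx1 and snai1) had H3K4me1 within 50 kb, against 74.6% of all genes, and the same 3 had H3K27ac, against 65.8%. At the TSS, H3K27ac was called for cdx4 and snai1 under inhibition (45.2% of all genes) and for cdx1 and snai1 in untreated embryos (37.7%). Of the 5 untreated H3K27ac peaks of these genes, 4 overlapped an inhibited peak, against 52.9% of the whole list. Of the 7 inhibited peaks 5 overlapped an untreated one, against 40.0%. For H3K4me1, 6 of 10 untreated peaks overlapped an inhibited one (53.6% of the list), and 6 of 6 inhibited peaks overlapped an untreated one (81.6%). These peaks share loci, with 4 of the 10 at cdx4 and 3 at snai1, so the counts are a description.

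The length under peaks, counted by position within 50 kb of each TSS, varied more than the number of genes. H3K27ac covered 4.74 kb in inhibited and 15.7 kb in untreated embryos at cdx1, 6.82 and 13.8 kb at snai1, and 2.19 and 5.25 kb at myf5. The myf5 lengths lay in peaks annotated to myf6, and the inhibited snai1 length included a peak annotated to rnf114. At cdx4 H3K27ac covered 6.14 kb in inhibited and 2.45 kb in untreated embryos, so the direction was not shared. Over the whole lists H3K27ac covered 39.9 Mb in inhibited and 34.6 Mb in untreated embryos. H3K4me1 covered 10.2 kb in inhibited and 5.93 kb in untreated embryos at myf5, where the inhibited length lay at the upstream myf6 element. At the other 4 genes H3K4me1 covered less length under inhibition. In inhibited and untreated embryos it covered 10.3 and 14.8 kb at snai1 and 4.04 and 4.53 kb at cdx1. At cdx4 it covered 2.69 and 5.89 kb, and at msgn1 0 and 1.28 kb, in the same order. The msgn1 length lay in a peak annotated to gen1, 36.8 kb upstream, and the snai1 lengths included peaks annotated to rnf114. Peaks annotated to snai1 itself within 50 kb summed to 7.34 kb in inhibited and 8.93 kb in untreated embryos. Over the whole lists H3K4me1 covered 49.5 Mb in inhibited and 59.0 Mb in untreated embryos. At stage 10.5 H3K27ac covered from 10.1 kb at msgn1 to 53.7 kb at snai1. The whole stage 10.5 lists also covered more than those of untreated stage 9, with 97.1 Mb for H3K27ac and 92.5 Mb for H3K4me1. H3K4me3 covered 29.3 Mb at stage 10.5 and 8.08 Mb at stage 9.

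**Figure D5:**
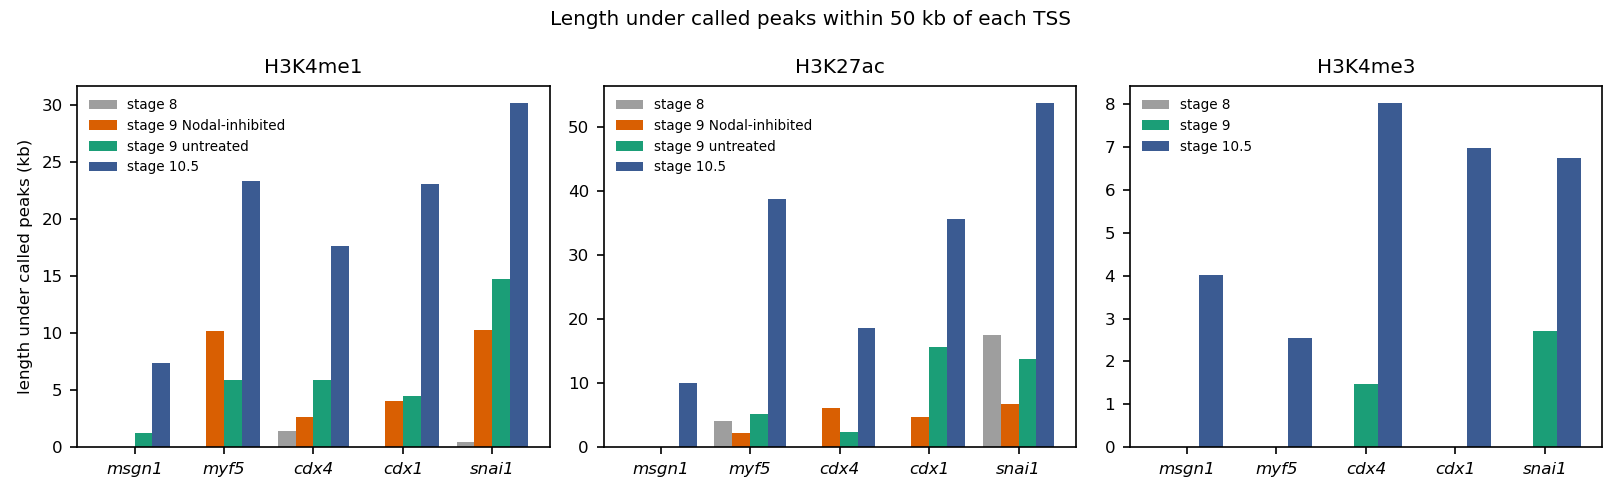
Length (kb) under called peaks within 50 kb of each TSS, counted by position whatever gene a peak is annotated to, for H3K4me1, H3K27ac and H3K4me3; each bar is 1 peak list and there is no replicate error. Stage 10.5 bars are the highest for every gene and mark, and the whole stage 10.5 lists also cover the most length for each mark. H3K27ac is shorter in Nodal-inhibited than in untreated stage 9 embryos at myf5, cdx1 and snai1 and longer at cdx4.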

How the data were processed

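The authors deposited raw tag counts per called 3' RNA-seq region (xenTro2, with strand ignored when regions were assigned to genes, per the file headers; the regions themselves carry an orientation) and 17 annotated peak lists. The submitters' processing notes name BWA for histone libraries of untreated embryos, Bowtie for all other ChIP and input libraries, MACS2 for peak calling and HOMER for annotation. Peak scores and the distance to the TSS are as deposited, as is the GC fraction, turned into percent here. A deposited kurtosis score per RNA region played no part, and 4 columns named as second replicates of the RNA groups, with no matching sample here, were not analysed. Per the file headers, alignment dates of the RNA differ between stage 10.5, the inhibited embryos and the rest, so a batch by date cannot be told apart from stage 10.5 or treatment. The stage 9 H3K27ac list carries peak names with a stage 8 prefix under a stage 9 header, and was used as stage 9. The title of the untreated stage 9 H3K4me1 library mentions a repeat in another pool, and the labels do not say which run its list holds.

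Tags were summed per gene label and scaled to named tags, with 32.6%, 30.5%, 29.1% and 29.5% of tags unnamed at stage 8, inhibited stage 9, untreated stage 9 and stage 10.5. Folds carry conditional binomial (Clopper-Pearson) intervals, levels exact Poisson ones. TSS position and strand were derived from each peak's centre and its deposited signed distance, within 0.5 bp over all peaks of a gene. Overlap means at least 1 bp. Python 3.11.15, pandas 2.3.3, SciPy 1.17.1 and edgeR 4.0.16 (TMM factors only) were used, and the fold calls and overlaps were tested on simulated data. The genes named are the 5 members, the 5 closest profiles per gene with at least 10 CPM, and called genes of the pathway list. Members and lists were chosen with earlier results of these data known. No xenTro2 sequence was used, so no sequence or motif is given. Depth of the ChIP libraries is unknown here.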

Additional observations from a re-analysis of the deposited data

How the results depend on the processing

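Of 84 alternative counts, 78 stayed within 1.5 times the reported count. No called ratio changed direction in the 72 recomputed log2 ratios, although 20 of these moved beyond their allowed range. That range was the counting interval, widened to take in the reported ratio. For msgn1, cdx4 and cdx1 at stage 10.5 over stage 9 the range began at the reported ratio, because stage 9 held 0 tags. Any fall there counted as moved, such as 4.76 against 4.80 for msgn1 with TMM sizes. Many of the alternatives could not differ from the reported value, so the tally does not measure how firm the results are. A stricter overlap leaves a count of 0 at 0. No label of several genes held a member, and the minimum level does not enter a log2 ratio. Of 68 alternative peak sums 18 moved by over 1.5 times, such as H3K4me1 of untreated stage 9 (4, against 10) and H3K27ac of stage 10.5 (7, against 16), both within 10 kb or at scores of at least the list median. With a pseudocount of 5 CPM no gene was called higher under Nodal inhibition (0, against 1 reported). Between stage 9 and stage 8, 1 gene was called lower with scaling to all tags, with TMM sizes or with a pseudocount of 5 CPM, and 0 with median-of-ratios size factors, against 2 reported. The snai1 log2 ratio was -0.71 with TMM sizes. With an overlap of 50% of the shorter peak, 1 of the 3 stage 10.5 Smad2/3 sites lay under stage 10.5 H3K4me3, against 2. With scaling to all tags the stage 9 over stage 8 log2 ratios stayed beyond 2-fold (-1.32 for myf5 and -1.08 for snai1). The call was lost there through the 10 CPM minimum. Other causes were not tested beyond the shift of all labels, whose median moved to 0.08 (TMM) and 0.10 (median-of-ratios) in the stage 9 comparison. The 4 genes higher at stage 10.5 than at stage 9 stayed 4 under the scalings, pseudocounts and sense-strand regions tried, the last an alternative chosen after seeing the data. No paired analysis was made because every group as used here has 1 library, and for the same reason no library could be left out. Few tags limit cdx1 (26) and the early counts of myf5. Peak calls hold no signal where no peak was called, so a missing peak does not show that a mark is absent.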
